A study of Homo sapiens with 12 samples.

Results

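10 textbook target genes of p53 were followed in K562 cells and in their drug-resistant subline: CDKN1A, MDM2, GADD45A, ZMAT3, TP53INP1, BAX, BBC3, FAS, TP53I3 and FDXR. They were listed by name, with earlier results of these data known, and each was read on the array row annotated to it. Of the 10 genes, 9 had such a row, 1 row each, among 18417 genes with a row of their own. FDXR and TP63 were not analysed here.

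Expression was measured on 12 Affymetrix arrays in 4 groups of 3. Treated KA is K562/ADR, a subline selected for resistance to adriamycin (doxorubicin) and kept in 50 nM of that drug, after 5 nM decitabine for 72 hours. Untreated KA is the same subline without decitabine, treated KS is the sensitive parent K562 given decitabine in the same way, and untreated KS is K562 alone. K562 is a widely used line of chronic myeloid leukaemia cells, and decitabine is a cytidine analogue that, once in DNA, binds and depletes the DNA methyltransferases. KA differs from KS both as a subline and by the adriamycin it was kept in, so these cannot be told apart, and the labels leave unsaid what untreated cells received. The declared purpose concerned how decitabine acts on multidrug resistance.

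p53 is a transcription factor that is stabilised after DNA damage. It switches on genes that stop the cell cycle (CDKN1A, GADD45A), that kill the cell (BBC3, BAX, FAS) and that switch p53 itself off again (MDM2). K562 is known as a p53-deficient line, so the levels of these genes in K562 are set without that factor. Many of them are also known to answer to other transcription factors, among them p73 and factors of stress and differentiation.

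Windows around annotated start sites (250 bases before to 50 after, RefSeq, GRCh38.p14) were held for 8 of the 10 genes, 15 windows in all. TP53INP1 and GADD45A had none. The 3 printed here belong to a gene that rose with decitabine in both lines (CDKN1A, chr6:36678464-36678763, plus strand), to the inner of the MDM2 start regions, where p53 is known to act (chr12:68808767-68809066, plus strand), and to a gene that fell in KS (BAX, chr19:48954625-48954924, plus strand). Capitals mark CpG, the dinucleotide whose cytosine the DNA methyltransferases modify.
CDKN1A: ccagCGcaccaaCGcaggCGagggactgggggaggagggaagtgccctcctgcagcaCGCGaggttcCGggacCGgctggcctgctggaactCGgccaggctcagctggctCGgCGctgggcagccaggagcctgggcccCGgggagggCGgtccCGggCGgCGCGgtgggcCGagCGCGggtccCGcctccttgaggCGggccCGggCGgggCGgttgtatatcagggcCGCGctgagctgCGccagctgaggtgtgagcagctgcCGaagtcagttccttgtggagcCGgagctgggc
MDM2: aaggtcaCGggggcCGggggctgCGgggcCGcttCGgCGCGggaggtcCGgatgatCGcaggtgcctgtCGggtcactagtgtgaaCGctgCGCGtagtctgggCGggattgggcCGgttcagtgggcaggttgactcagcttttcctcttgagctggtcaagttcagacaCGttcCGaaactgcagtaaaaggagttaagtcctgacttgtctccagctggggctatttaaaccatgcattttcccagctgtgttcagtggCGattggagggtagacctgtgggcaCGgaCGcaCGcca
BAX: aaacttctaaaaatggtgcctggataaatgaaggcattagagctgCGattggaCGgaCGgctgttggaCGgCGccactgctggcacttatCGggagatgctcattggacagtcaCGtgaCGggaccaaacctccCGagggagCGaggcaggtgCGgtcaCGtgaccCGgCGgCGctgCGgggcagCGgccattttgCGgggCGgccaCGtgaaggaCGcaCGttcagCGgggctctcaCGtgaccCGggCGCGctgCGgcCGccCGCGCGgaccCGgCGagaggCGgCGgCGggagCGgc
These windows held 29 CpG (CDKN1A), 21 (MDM2) and 38 (BAX), against a median of 14 over 35116 windows. Over all 15 windows the count ran from 2 (ZMAT3) to 39 (MDM2), and the windows of BBC3 and TP53I3 held 5 and 9. The GC box GGGCGG, searched on both strands and holding a CpG itself, occurred 4 times in the CDKN1A window, 1 time in this MDM2 window and 2 times in the BAX window, and 45% of all windows held it. The p53 half-site consensus, searched on both strands, occurred in none of the 3 printed windows. It was found in 2 of the 15 windows, 1 of FAS and 1 of FDXR, and in 6.63% of all windows. An absent match says only that these letters are not in the window. CDKN1A lies at chr6:36676463-36687332, MDM2 at chr12:68808172-68850686, BAX at chr19:48954875-48961798, and GADD45A at chr1:67685201-67688334.

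Values are log2 intensities as deposited. The medians of the arrays ranged over 4.96 to 5.01, and the correlation within a group over 0.990 to 0.995. The background level was put at 3.39, the largest lower quartile of any array. Untreated KS replicate 3 stood apart: 46 and 59 genes differed by at least 1 between it and the other untreated KS arrays, against 4 to 13 for the other pairs of arrays within a group. Of the K562 erythroid markers, all 10 measured exceeded background in every group. Most markers of other cell types exceeded it too, so passing that level does not by itself show expression. Below, changes carry their standard error (SE), "called" means a limma adjusted p under 0.05 over all 18417 genes, and p-values reflect only how these arrays vary, which may be technical, since the labels do not state whether replicates were separate cultures. In bulk RNA, fewer cells that express a gene and less of its RNA per cell cannot be told apart.

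**Figure D1:**
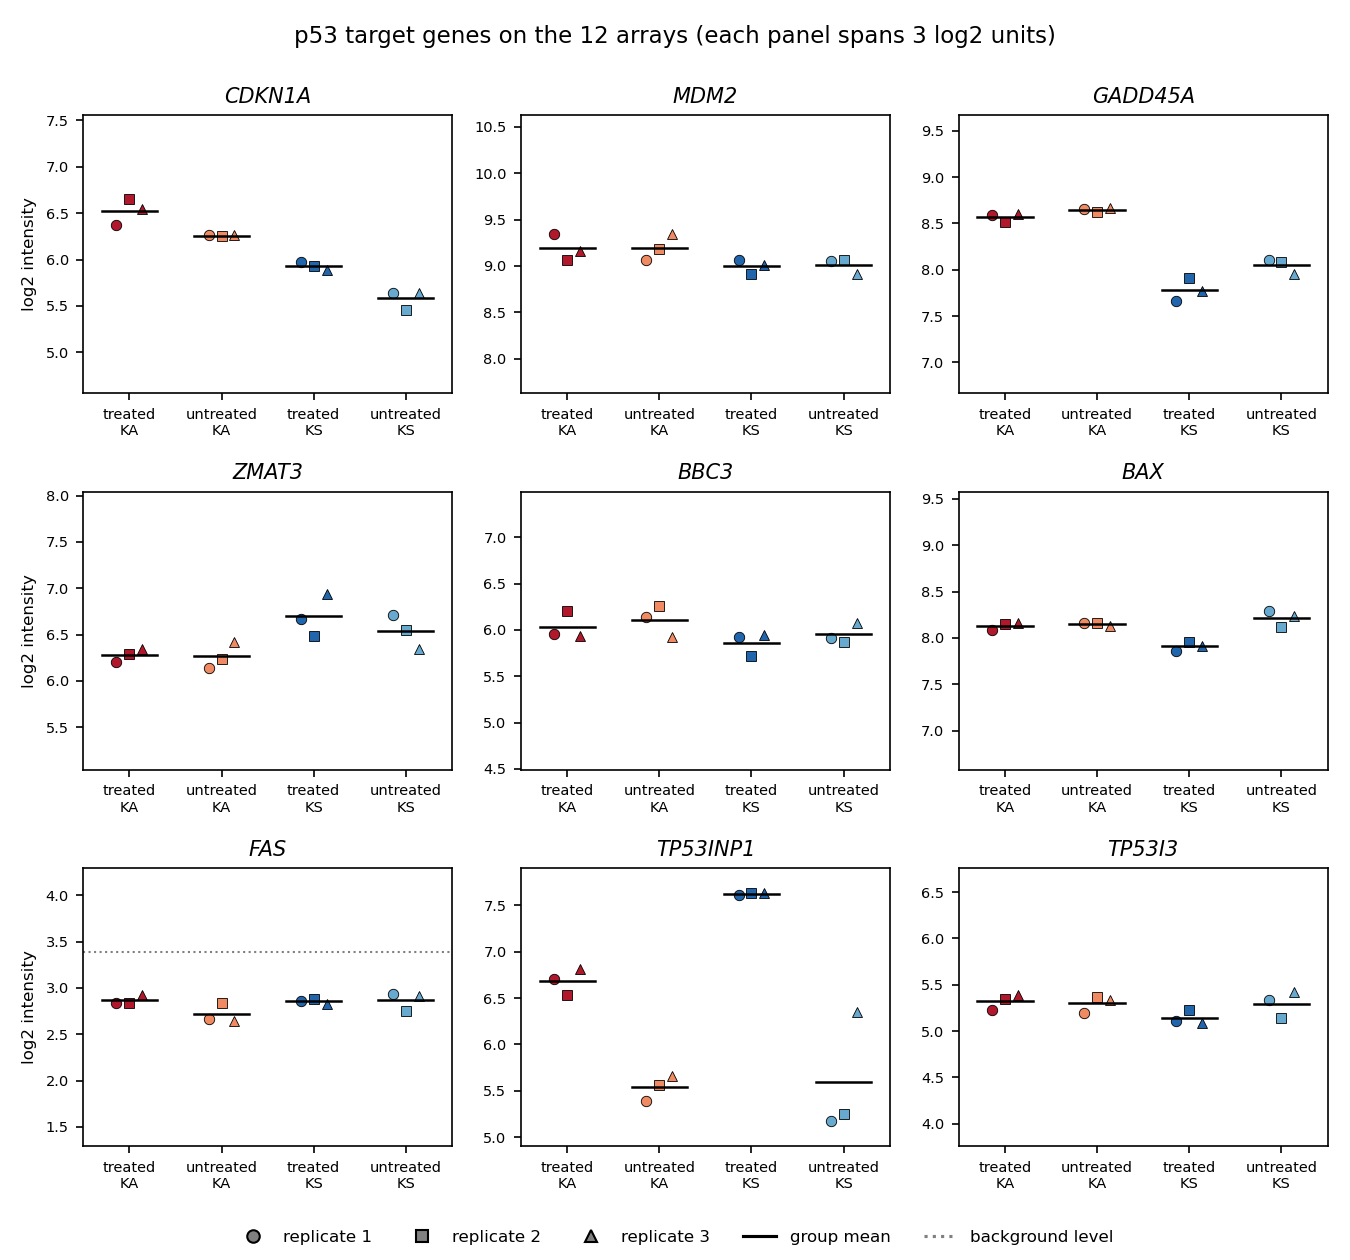
log2 intensity (vertical axis, 3 units in each panel) of the 9 measured p53 targets on the 12 arrays, grouped as treated KA, untreated KA, treated KS and untreated KS, with a line at each group mean and a dotted line at the background level of 3.39. TP53INP1 shows the widest span of group means (2.09), its untreated KS replicate 3 lies at 6.35 above the other untreated KS arrays, and FAS lies under the background level on every array.

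With decitabine, TP53INP1 and CDKN1A rose in both lines, while BAX and GADD45A fell in KS. The other 5 measured targets were called in neither line. In KA 2 of 9 targets were called, both higher, where 14.6% of all genes were called in either direction and 9.66% were called higher. In KS 4 of 9 were called, 2 higher and 2 lower, where 30.3% of all genes were called, 14.6% higher and 15.7% lower. The median change of the 9 was 0.01 in KA and -0.01 in KS, against -0.02 and -0.01 over all genes. Arrays without overlap between treated and untreated cells were met in 19.5% (higher) and 16.4% (lower) of all genes in KA, and in 19.3 and 20.7% in KS.

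Among the genes of arrest and feedback, CDKN1A encodes p21, an inhibitor of cyclin-dependent kinases. It read 6.37, 6.65 and 6.54 in treated KA, against 6.26, 6.25 and 6.26 in untreated KA. In treated KS it read 5.97, 5.93 and 5.89, against 5.64, 5.46 and 5.64 in untreated KS. Treated arrays lay above untreated ones in each line, and all 6 KA arrays lay above all 6 KS arrays. The rise was 0.35 ± 0.08 in KS (adjusted p = 0.00481), a 1.27-fold change that was called under all 19 alternative settings. The rise in KA was smaller, 0.26 ± 0.08 (adjusted p = 0.0443), and its call was lost in 12 of 19 alternatives, among them leaving out any 1 KA array other than treated replicate 1 (adjusted p up to 0.164). The difference between the responses was not called (-0.09, 95% interval -0.33 to 0.16).

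GADD45A encodes a stress protein that binds PCNA and slows the cell cycle. It read 8.59, 8.52 and 8.60 in treated KA, against 8.65, 8.62 and 8.67 in untreated KA, and 7.66, 7.91 and 7.77 in treated KS, against 8.11, 8.08 and 7.95 in untreated KS. Treated arrays lay below untreated ones in both lines, by little in KA. In KS it fell by 0.27 ± 0.08 on the log2 scale (adjusted p = 0.0166), and in KA the change of -0.08 was not called (interval -0.24 to 0.09). The call in KS was lost under quantile normalization (adjusted p = 0.0620), when only the KS groups were fitted (0.0675), and without treated KS replicate 1 (0.0748) or untreated KS replicates 1 (0.0677) or 2 (0.0528). The difference between responses, 0.19 ± 0.11, was not called (adjusted p = 0.323).

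MDM2, the ubiquitin ligase that degrades p53, read 9.34, 9.07 and 9.16 in treated KA, against 9.07, 9.18 and 9.34 in untreated KA. It read 9.07, 8.91 and 9.01 in treated KS, against 9.05, 9.06 and 8.91 in untreated KS. Treated and untreated arrays overlapped in both lines, and the intervals of the change, -0.20 to 0.20 in KA and -0.21 to 0.19 in KS, leave room for changes of that size. ZMAT3, a zinc finger protein that binds RNA, read 6.20, 6.29 and 6.34 in treated KA, against 6.14, 6.24 and 6.42 in untreated KA. It read 6.67, 6.49 and 6.94 in treated KS, against 6.71, 6.55 and 6.35 in untreated KS. It was called in neither line (intervals -0.25 to 0.27 in KA and -0.09 to 0.43 in KS).

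Among the genes of cell death, TP53INP1 moved most. Its product is a nuclear stress protein that takes part in apoptosis and autophagy, and its gene is also known to answer to p73. It read 6.71, 6.53 and 6.81 in treated KA, against 5.39, 5.56 and 5.66 in untreated KA. In treated KS it read 7.61, 7.63 and 7.63, against 5.17, 5.25 and 6.35 in untreated KS. Treated arrays lay above all untreated arrays in each line, and the treated KS arrays lay above the treated KA arrays. The rise was 1.15 ± 0.23 in KA (2.21-fold, adjusted p = 0.00559) and 2.04 ± 0.23 in KS (4.10-fold, adjusted p = 3.26e-05), and both calls were kept under all 19 alternatives. Untreated KS replicate 3 lay between its group and the treated arrays, and without it the rise in KS was 2.42.

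That array also decided whether the responses of the lines differed. With all 12 arrays the difference for TP53INP1, KA response minus KS response, was -0.89 ± 0.32 and was not called (adjusted p = 0.124). Without untreated KS replicate 3 it was -1.27 and called (adjusted p = 0.000290). In the other 18 alternatives it was not called.

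BAX encodes the protein that opens the outer mitochondrial membrane in apoptosis. It read 8.09, 8.15 and 8.16 in treated KA, against 8.16, 8.16 and 8.13 in untreated KA, and 7.86, 7.96 and 7.91 in treated KS, against 8.29, 8.12 and 8.24 in untreated KS. The KA groups overlapped, and the treated KS arrays lay below all other arrays. In KS it fell by 0.31 ± 0.07 on the log2 scale (adjusted p = 0.00307, called under all 19 alternatives). In KA it changed by -0.02 (interval -0.16 to 0.13, not called). The difference of 0.29 ± 0.09 between the responses was not called (adjusted p = 0.0833), except with an intensity trend and robust variances (0.0326).

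BBC3 encodes PUMA, a BH3-only activator of BAX, and read 5.96, 6.20 and 5.93 in treated KA, against 6.14, 6.26 and 5.92 in untreated KA. It read 5.92, 5.72 and 5.95 in treated KS, against 5.91, 5.87 and 6.08 in untreated KS. The groups overlapped in both lines, and BBC3 was not called (changes of -0.08 in KA and -0.09 in KS, intervals -0.31 to 0.15 and -0.33 to 0.14). FAS, the death receptor CD95, read 2.64 to 2.94 over the 12 arrays, so all 4 group means lay below the background level and no change of FAS could be read.

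The remaining measured target, TP53I3, is a quinone oxidoreductase linked to oxidative stress. It read 5.23, 5.35 and 5.39 in treated KA, against 5.20, 5.37 and 5.34 in untreated KA, and 5.11, 5.23 and 5.09 in treated KS, against 5.33, 5.14 and 5.42 in untreated KS. The arrays overlapped in both lines, and the changes of 0.02 in KA and -0.15 in KS were not called (intervals -0.17 to 0.21 and -0.34 to 0.04).

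**Figure D2:**
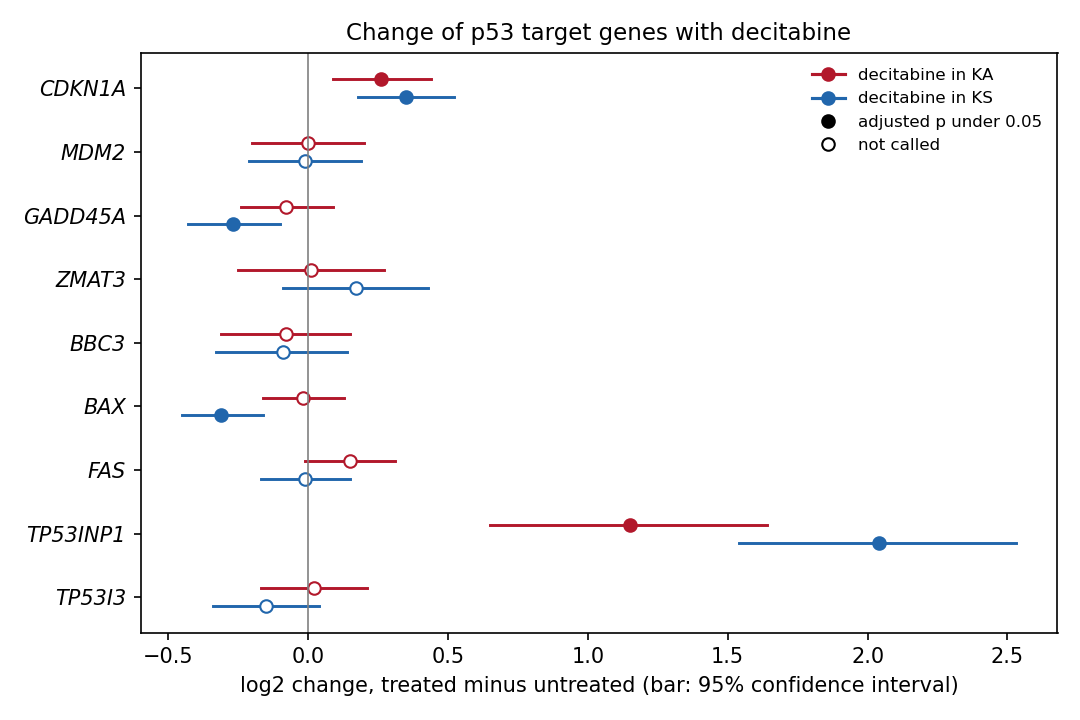
log2 change with decitabine (horizontal axis, treated minus untreated) of the 9 measured targets in KA and in KS, as points with 95% confidence intervals from limma, filled where called. TP53INP1 (1.15 in KA, 2.04 in KS) and CDKN1A (0.26 and 0.35) lie to the right in both lines, and BAX (-0.31) and GADD45A (-0.27) to the left in KS.

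Between the untreated lines, CDKN1A and GADD45A were higher in KA, and no target was called lower. CDKN1A averaged 6.26 ± 0.01 in untreated KA and 5.58 ± 0.11 in untreated KS (SD, n = 3 each), a difference of 0.67 ± 0.08 (SE, 1.59-fold, adjusted p = 4.20e-05). GADD45A averaged 8.65 ± 0.03 in untreated KA and 8.05 ± 0.08 in untreated KS, a difference of 0.60 ± 0.08 (1.52-fold, adjusted p = 6.72e-05). Both were called under all 19 alternatives. The 2 of 9 called stand beside 25.7% of all genes called between these groups, 11.6% higher and 14.1% lower. This comparison shares its untreated arrays with those of decitabine.

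The other 7 targets were not called between untreated lines. MDM2 had each KA array above each KS array, as 18.4% of all genes had (20.0% had each below), but its difference of 0.19 ± 0.09 was not called (adjusted p = 0.161). TP53INP1 differed by -0.05 (interval -0.55 to 0.44). Without untreated KS replicate 3 this turned to 0.33 and was called higher in KA (adjusted p = 0.0267). ZMAT3 differed by -0.27 (adjusted p = 0.127), and was called lower without the same array (-0.36, adjusted p = 0.0493), so that 4 of 9 targets were then called.

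Between the treated lines, 5 of 9 targets were called, where 27.0% of all genes were called, 15.1% higher and 11.9% lower. Higher in KA were GADD45A (0.79 ± 0.08, adjusted p = 5.43e-06), CDKN1A (0.59 ± 0.08, adjusted p = 0.000116) and BAX (0.22 ± 0.07, adjusted p = 0.0233). Lower were TP53INP1 (-0.94 ± 0.23, adjusted p = 0.00738) and ZMAT3 (-0.43 ± 0.12, adjusted p = 0.0171). For these 5 genes, and for MDM2 (higher, 0.20, not called), no array of one treated line overlapped with the other line, as in 22.1% of all genes in the higher and 19.4% in the lower direction. The ZMAT3 call was lost without treated KA replicate 1 (adjusted p = 0.0647) or treated KS replicate 3 (0.0826). The BAX call was lost under quantile normalization (0.0608) and without treated KA replicates 2 (0.0722) or 3 (0.0709) or treated KS replicates 1 (0.0823) or 3 (0.0585).

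The order of the 4 group means differed from gene to gene. For CDKN1A it was treated KA (6.52), untreated KA (6.26), treated KS (5.93) and untreated KS (5.58). For GADD45A it was untreated KA (8.65), treated KA (8.57), untreated KS (8.05) and treated KS (7.78), and the KA neighbours were not called different. For TP53INP1 it was treated KS (7.63), treated KA (6.68), untreated KS (5.59) and untreated KA (5.54), the last pair not called. For BAX the 3 groups other than treated KS (7.91) lay between 8.13 and 8.22. In the test of the difference of responses, 0 of 9 targets were called by limma, where 6.74% of all genes were called, 4.60% higher and 2.14% lower. At an unadjusted limma p, TP53INP1 (0.0170) and BAX (0.00840) were under 0.05.

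**Figure D3:**
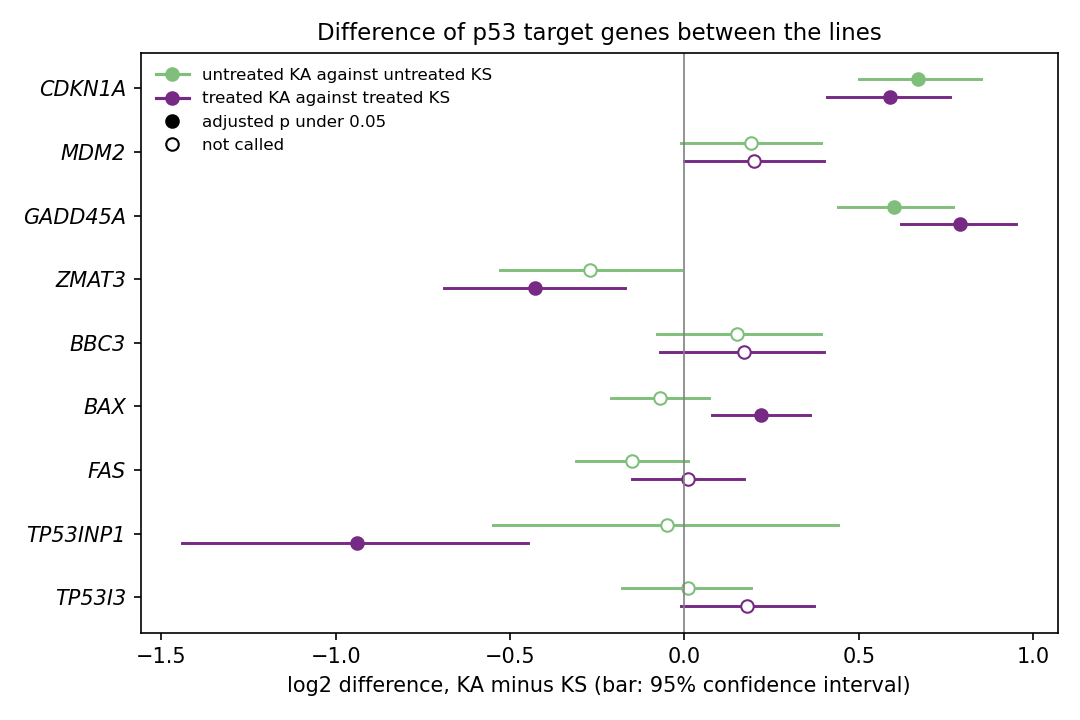
log2 difference between the lines (horizontal axis, KA minus KS) of the 9 measured targets, untreated and treated, as points with 95% confidence intervals from limma, filled where called. CDKN1A and GADD45A lie to the right in both comparisons (0.59 to 0.79), and TP53INP1 lies at -0.05 untreated and -0.94 treated.

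Of 47 measured further p53 targets, decitabine raised 14 and lowered 3 in KA (29.8 and 6.38%), with a median change of 0.10 against -0.02 over all genes. In KS it raised 12 and lowered 9 (25.5 and 19.1%), with a median of 0.05 against -0.01. Over all genes 9.66% were raised and 4.96% lowered in KA, and 14.6 and 15.7% in KS. Of the raised genes 10 were shared. They were 71.4% of those raised in KA and 83.3% of those raised in KS, against 63.9 and 42.4% over all genes. The means compared in KA and in KS share no array. The variance of each gene was fitted over all 12 arrays, however, so the calls in the lines are not independent. The 10 include PLK2, whose levels lay below background. None was called in opposite directions.

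CD82, a tetraspanin that restrains migration, rose by 0.59 ± 0.09 in KA (6.59, 6.46 and 6.35 in treated KA, against 5.85, 5.87 and 5.89 in untreated KA) and by 1.05 ± 0.09 in KS. DRAM1, a lysosomal protein of autophagy, rose by 0.51 ± 0.11 in KA and 0.53 in KS, and CYFIP2, a part of the actin-regulating WAVE complex, by 0.60 ± 0.13 in KA. PLK2, a polo-like kinase, was called higher in both lines, but its means (3.01 in treated KA, 2.33 in untreated KA, 3.14 in treated KS, 2.57 in untreated KS) lay below the background level, so its change is not read here. In KS, AEN, a nuclease that promotes apoptosis, fell by 0.81 ± 0.08, TNFRSF10A, a TRAIL death receptor, by 0.81 ± 0.10 and PLK3, another polo-like kinase, by 0.79 ± 0.10. TNFRSF10A was also called lower in KA (means of 6.83 treated and 7.15 untreated), a call kept in 8 of 19 alternatives. AEN read 7.01, 7.05 and 6.94 in treated KS, against 7.78, 7.76 and 7.88 in untreated KS, while in KA its groups overlapped.

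Between the lines, 10 of these 47 genes were higher and 5 lower in untreated KA, and 14 were higher and 3 lower in treated KA. These are 21.3 and 10.6% (untreated) and 29.8 and 6.38% (treated) of the 47, against 11.6 and 14.1% and 15.1 and 11.9% of all genes. GDF15, a secreted stress cytokine, read 10.35, 10.35 and 10.42 in untreated KA, against 8.91, 8.86 and 9.03 in untreated KS, and was 1.44 ± 0.07 higher (2.71-fold). It was 1.85 ± 0.07 higher in treated KA than in treated KS. TNFRSF10B, another TRAIL receptor, was 0.64 ± 0.07 higher in untreated KA, and SESN1, a sestrin that restrains mTOR signalling, was lower (-0.63 ± 0.11). In treated KA, SESN2, a related sestrin, was 0.99 ± 0.09 higher, CYFIP2 1.12 ± 0.13 higher and AEN 0.80 ± 0.08 higher than in treated KS.

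The responses of the lines differed for 8 of the 47, with 6 higher and 2 lower in KA (12.8 and 4.26%, against 4.60 and 2.14% of all genes). Under quantile normalization the count was 4 and 3 and the median turned to -0.01, against 0.04 before. AEN (0.73 ± 0.12, adjusted p = 0.00486) and PLK3 (0.75 ± 0.14, adjusted p = 0.00979) were called under all 19 alternatives. SESN2 (0.52 ± 0.12) was called in 10 of 19. TIGAR, a fructose bisphosphatase, was called too (in 11 of 19), but 3 of its 4 group means lay below background, so its difference is not read here.

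Of 21 measured p53 relatives and regulators, 4 rose and 3 fell with decitabine in KA, and 6 rose and 6 fell in KS. These are 19.0 and 14.3% of the list in KA, against 9.66 and 4.96% of all genes, and 28.6% each way in KS, against 14.6 and 15.7% of all genes. TP73, a p53 relative that acts on many of the same genes, was called in none of the 5 comparisons (unadjusted limma p from 0.129 to 0.822). It read 6.18, 6.09 and 6.17 in treated KA, against 6.04, 6.14 and 6.01 in untreated KA, and 6.06, 6.08 and 5.95 in treated KS, against 6.05, 5.97 and 6.04 in untreated KS. MDM4, an inhibitor of p53 related to MDM2, was not called with decitabine (0.26 in KA, 0.10 in KS) and was 0.49 ± 0.10 higher in treated KA than in treated KS. MDM4 was also called higher in untreated KA than in untreated KS (means of 7.42 and 7.11), a call kept in 15 of 19 alternatives. ATM, the kinase that signals DNA breaks to p53, rose by 0.48 ± 0.09 in KA and 0.89 ± 0.09 in KS. KAT5, an acetyltransferase of p53, fell by 0.51 ± 0.07 in KA and 0.55 ± 0.07 in KS. USP7, a deubiquitinase of MDM2 and p53, fell by 0.59 ± 0.07 in KS, and RCHY1, a ubiquitin ligase for p53, by 0.66 ± 0.13. USP7 was also called lower in KA (means of 8.52 treated and 8.83 untreated), a call kept in 16 of 19 alternatives.

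CHEK2, a checkpoint kinase, rose by 0.42 ± 0.12 in KA, and its call was kept in 13 of 19 alternatives. It also rose in KS (means of 6.53 treated and 6.08 untreated), called under all 19 alternatives. CDKN2A changed by -0.44 ± 0.13 in KA and was called in 13 of 19, with group means of 3.86 to 4.31, little above background in a line known to carry a deletion of this locus. Between untreated lines 7 of the 21 were higher and 5 lower in KA, and 4 and 6 without untreated KS replicate 3. Between treated lines 7 were higher and 3 lower. The shares were 33.3 and 23.8% untreated and 33.3 and 14.3% treated, against 11.6 and 14.1% and 15.1 and 11.9% of all genes. ATM read 7.01, 7.08 and 7.04 in untreated KA, against 7.93, 8.05 and 8.06 in untreated KS, a difference of -0.97 ± 0.09, and -1.38 ± 0.09 between treated lines. ATR, the kinase of stalled replication forks, differed by -0.87 ± 0.10 and CHEK1, its effector kinase, by -0.48 ± 0.09, while HIPK2, a kinase of p53, was 0.46 ± 0.07 higher. The responses differed for RCHY1 (0.71 ± 0.19, called in 8 of 19 alternatives) and DAXX, a nuclear chaperone (0.47 ± 0.12, called in 9 of 19). Under quantile normalization 1 was called higher and 1 lower.

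Of the other CDK inhibitors, 5 were measured. CDKN3, a phosphatase that acts on CDKs, rose in both lines (0.74 ± 0.10 in KA, 0.41 ± 0.10 in KS), and CDKN1C, the inhibitor p57, rose in KS (0.40 ± 0.09). CDKN1B, the inhibitor p27, fell by 0.39 ± 0.10 in KA (called in 16 of 19 alternatives) and by 0.29 ± 0.10 in KS (called in 7 of 19). Between untreated lines CDKN2B (0.36 ± 0.09) and CDKN1C (0.30 ± 0.09, called in 12 of 19) were higher in KA. The CDKN2B means of 4.20 to 4.55 lay near those of CDKN2A (3.86 to 4.31), also on chromosome 9. Whether the difference of CDKN2B is one of expression was not tested. By limma 0 of 5 were called between treated lines (0 at an unadjusted p under 0.05) and 0 of 5 for the difference of responses (3 at an unadjusted p under 0.05).

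p21 is known to repress cell cycle genes through the DREAM complex. Of 25 such genes, all measured, decitabine raised 11 and lowered 0 in KA (44.0% raised, median 0.23), and raised 13 and lowered 0 in KS (52.0%, median 0.20). At an unadjusted limma p under 0.05, 16 were higher in KA and 14 in KS, and 0 were lower in either line. Over all genes 9.66% were called higher in KA (median -0.02) and 14.6% in KS (median -0.01). In both lines 8 of the 25 were raised, which is 72.7% of those raised in KA and 61.5% of those raised in KS, against 63.9 and 42.4% over all genes. CDC25C, the phosphatase that starts mitosis, read 7.84, 7.72 and 7.56 in treated KA, against 6.96, 7.12 and 7.08 in untreated KA, a rise of 0.65 ± 0.10. In KS it rose by 0.87 ± 0.10, KIF20A, a mitotic kinesin, by 0.63 ± 0.07 and TOP2A, a topoisomerase, by 0.52 ± 0.08. KIF20A (0.46 ± 0.07) and TOP2A were called higher in KA too. PLK1, the mitotic polo-like kinase, rose by 0.46 ± 0.07 in KA.

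Between the lines, 8 of the 25 were lower in KA and 2 higher, both untreated (median -0.14) and treated (median -0.19). CDKN1A was higher in KA in both states. It also rose with decitabine in both lines, where genes of this list were called higher and none lower. The part of CDKN1A in these changes was not tested. Without untreated KS replicate 3 the untreated counts were 5 lower and 2 higher, and under quantile normalization 4 lower and 2 higher (treated, 11 lower and 2 higher). The 8 lower are 32.0% of the list, against 14.1% of all genes untreated and 11.9% treated, and of all genes 11.6 and 15.1% were higher. ECT2, a regulator of cytokinesis, differed by -0.61 ± 0.09 between untreated lines, cyclin B1 (CCNB1) by -0.55 ± 0.07 and the proliferation marker MKI67 by -0.44 ± 0.08. Higher was PRC1, a spindle midzone protein, by 0.36 ± 0.07, and between treated lines CDC20, an activator of the anaphase-promoting complex, by 0.57 ± 0.06. The responses differed for CDC20 (0.50 ± 0.09), PLK1 (0.45 ± 0.10, called in 14 of 19 alternatives) and CCNB1 (0.36 ± 0.10, called in 6 of 19).

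**Figure D4:**
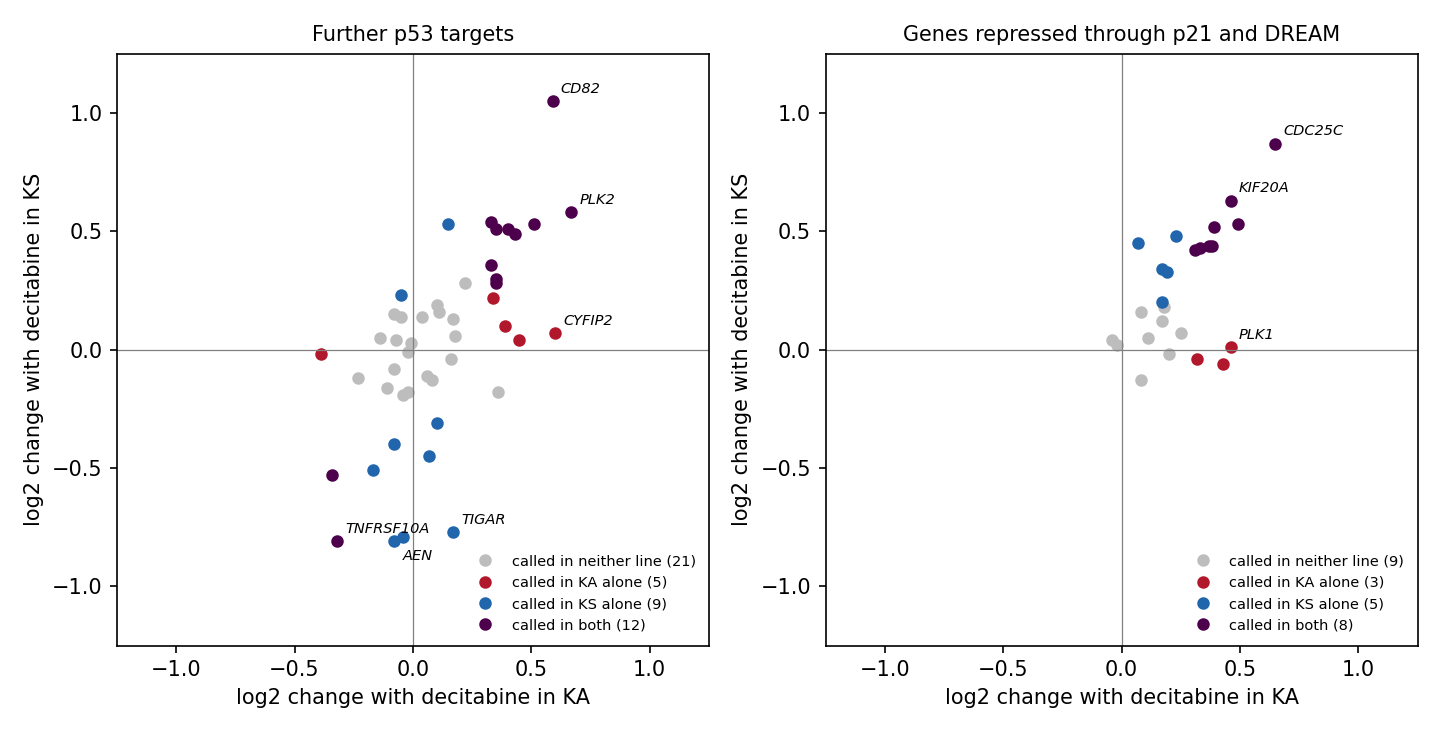
log2 change with decitabine in KA (horizontal axis) and in KS (vertical axis) of 47 further p53 targets (left) and 25 genes repressed through p21 and DREAM (right), coloured by the line in which each was called. In the left panel calls lie in both directions, most of the falls in KS, and in the right panel every called gene lies on the side of a rise.

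TP53INP1 and CDKN1A each followed a pattern that other genes shared. Over the 12 arrays, among 4961 genes whose group means spanned at least 0.5, the 3 most like TP53INP1 were FEZ1 (Pearson r = 0.992), VAV1 (0.991) and RTL9 (0.990). The 3 most like CDKN1A were IGBP1 (0.984), OR51B4 and CD44 (both 0.981), and the 3 most like MDM2 were C9orf72 (0.898), LCORL (0.889) and LATS1 (0.885). Arrays of a group share their condition, so for TP53INP1 and CDKN1A these are descriptions of 4 group levels more than of 12 independent points. The group means of MDM2 spanned only 0.20, with SDs of 0.08 to 0.14. Its correlations can therefore also follow differences between arrays of the same group. Among the 9 targets themselves r ranged from -0.79 (BAX and TP53INP1) to 0.75 (BAX and TP53I3).

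Markers of other cell types were set beside the decitabine comparisons in which TP53INP1 rose. Of 10 granulocyte and monocyte markers, 1 was called higher in KA (10.0%, against 9.66% of all genes) and 4 in KS (40.0%, against 14.6%), and none was called lower. The 4 include FCGR3A, whose means lay below background. Their summed linear intensity was 672 to 724 in treated KA, against 344 to 358 in untreated KA, and 2203 to 2340 in treated KS, against 389 to 961 in untreated KS. The upper end in untreated KS was replicate 3. The differences between these sums lay mostly in LYZ, the lysozyme of myeloid cells. The other 9 markers summed to 178 to 199 in treated KA, against 183 to 226 in untreated KA. In treated KS they summed to 203 to 226, against 170 to 200 in untreated KS, a smaller rise without overlap. LYZ read 11.06, 11.03 and 10.95 in treated KS, against 7.77, 7.86 and 9.57 in untreated KS. Of the 10 granulocyte and monocyte markers, 8 or 9 exceeded background in each group. So did 10 of the 11 lymphoid and 8 of the 9 epithelial markers, so passing that level does not by itself show expression. Of the 10 erythroid markers, 2 rose in KA and 7 in KS. ALAS2, which starts haem synthesis in red cells, rose by 2.47 ± 0.31 in KS and by 1.01 ± 0.31 in KA. The part of these markers in the changes of the p53 targets was not tested. Of 11 lymphoid, 9 epithelial and 11 fibroblast and endothelial markers, at most 1 of each list was called in either direction with decitabine. Between the lines, CDKN1A and GADD45A were higher in KA. Of all genes 11.6% were higher and 14.1% lower untreated, and 15.1 and 11.9% treated. Of the 10 erythroid markers 4 were higher and 0 lower in untreated KA (40.0% higher), and 1 was higher and 1 lower in treated KA (10.0% each). Without untreated KS replicate 3 these counts were 5 higher and 1 lower untreated, and 2 higher and 2 lower treated. Of the 11 lymphoid markers 2 were higher in untreated KA (18.2%) and 3 in treated KA (27.3%). They were led by CD3D, a T-cell receptor subunit (2.28 ± 0.09 untreated, 2.36 ± 0.09 treated). Of the 9 epithelial markers 2 were higher and 1 lower untreated (22.2 and 11.1%), and 3 higher and 1 lower treated (33.3 and 11.1%). Among them were the keratin KRT19 (0.56 ± 0.07 and 0.64 ± 0.07) and the mucin MUC1 (-0.77 ± 0.10 and -0.88 ± 0.10). LYZ was lower in KA (-1.20 ± 0.34 untreated, -2.03 ± 0.34 treated). It read 7.05, 7.15 and 7.42 in untreated KA, so the size of the untreated difference leaned on untreated KS replicate 3 (9.57). The part of these markers in the differences of the p53 targets between the lines was not tested.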

How the data were processed

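The 10 p53 targets and the gene lists were chosen with earlier results of these data known. The deposited values are log2 intensities on 33297 rows, per the values themselves, and the authors' background correction, summarization and normalization are not given in the sources used. They were analysed on that scale, and precision is limited by the number of arrays. The platform annotation gave 1 symbol to 19460 rows, several to 1754 and none to 12083. Symbols were updated through Entrez identifiers to RefSeq (19429 rows matched), and the brightest row stood for each of 18417 genes.

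A limma model (version 3.58.1, R 4.3.3) with 1 mean per group was fitted to all 12 arrays, with 8 residual and 4.71 prior degrees of freedom, and p-values were Benjamini-Hochberg adjusted over all genes. The 5 comparisons were decitabine in each line, the lines untreated and treated, and the difference of responses. The fit was tested on simulated data. Of the other lists, at most the 4 called genes with the largest change per comparison are named. A few others are named as counterparts of these in another comparison. TP73 and MDM4 were always named, and LYZ, ALAS2, FCGR3A, CD3D, KRT19 and MUC1 were named after their values were seen. Alternatives were median centring, quantile normalization, the mean of a gene's rows, a filter on dim genes, an intensity trend with robust variances, a fit of only the groups compared, the replicate number as a block, and each array left out. Plots were made in Python 3.11.15 using matplotlib 3.10.9.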

Additional observations from a re-analysis of the deposited data

How the results depend on the processing

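Of the calls on the p53 targets, those of TP53INP1 and CDKN1A with decitabine in KS, BAX with decitabine in KS, TP53INP1 with decitabine in KA, CDKN1A and GADD45A between the lines in both states, and TP53INP1 between treated lines kept their direction and side of the threshold under all 19 alternatives. With decitabine in KA the number of targets called was 1, against 2, under quantile normalization, with only the groups compared and with the replicate block, and 1 to 2 with single arrays left out. The target lost was CDKN1A. In KS the number was 3 to 4 with single arrays left out, between untreated lines 2 to 4 (4 without untreated KS replicate 3), and between treated lines 3 to 5 (3 without treated KS replicate 3). For the difference of responses it was 0 to 1, and 1 with an intensity trend and robust variances. TP53INP1 between untreated lines, -0.05 over all arrays, ranged from -0.26 (without untreated KS replicate 1) to 0.33 (without untreated KS replicate 3, where its sign turned). Without that array the difference of responses was called for 4 p53 relatives and regulators, against 2, and for 2 other CDK inhibitors, against 0, a setting chosen after seeing the data.

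Over all genes, decitabine in KA gave 2694 calls, and 1653 to 3020 with single arrays left out. The difference of responses gave 1241 calls, 1918 with an intensity trend and robust variances, 778 with the replicate block and 564 to 2049 with single arrays left out (the highest without untreated KS replicate 3). The other all-gene counts stayed between 4535 and 5775 (decitabine in KS), 3824 and 4878 (untreated lines) and 4180 and 5309 (treated lines) with single arrays left out. Of the calls in the difference of responses, 68.3% were higher in KA, and 53.9% under quantile normalization. Samples of the same replicate number did not deviate together: 2 of 18 correlations of their deviations exceeded 0.1 (range -0.26 to 0.19). The numbers were therefore not taken as pairs, and the replicate block changed no call on the targets other than that of CDKN1A in KA. Some arrays of unlike number did deviate together. Treated KA replicate 2, untreated KA replicate 1, treated KS replicate 2 and untreated KS replicate 3 correlated with one another at 0.18 to 0.26. The replicate block does not take up such a grouping, and no fit with it was made. The causes of these shifts were not tested.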
